A study of Homo sapiens with 2 samples.

Results

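PRKAR1B, the gene of a regulatory subunit of protein kinase A, gave 5 circular RNAs (circRNAs) among the 1485 circRNAs of the table. They were taken as every circRNA whose host names, split at commas, include PRKAR1B, and in all 5 it was the only host name. The gene was chosen by its number of listed circRNAs and by their reads in HD-SB, so these values are a description and carry no test. SW620 cells, an established colorectal cancer line, had been given Hedyotis diffusa-Sculellaria barbata (HD-SB), a herb pair, at 1 mg/mL and were collected after 24 h, or were labelled Control with no agent named. Ribosomal RNA was removed and RNase R, which degrades linear RNA and spares circles, was applied before sequencing. There was 1 library per group, so no value has a replicate error.

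A circRNA forms when the 3′ end of an exon (its splice donor) is joined backwards to the 5′ end of the same or an earlier exon (its acceptor), and it is counted by reads that cross this back-splice junction. Protein kinase A, the main receptor of the second messenger cyclic AMP (cAMP), is held inactive by a dimer of regulatory subunits bound to catalytic subunits, and cAMP binding to the regulatory subunits releases the kinase. PRKAR1B encodes the type I beta regulatory subunit, best known from the nervous system, while its relative PRKAR1A encodes the broadly expressed type I alpha subunit. From its amino terminus a type I regulatory subunit has a dimerisation and docking domain, an inhibitor site that occupies the active site of the catalytic subunit, and then its cAMP-binding domains.

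The 5 circRNAs were told apart by their ends, and the distance between those ends placed each on the exons of PRKAR1B. In the deposited coordinates they lay on chromosome 7 between 618893 and 751164. The submitters' processing notes name GRCh38, yet the deposited positions do not fall on exon ends of the gene in GENCODE 29 (GRCh38), so they are printed as deposited and were not carried into another build. The length from start to end can still be compared where both builds hold the same number of bases in between. For each of the 5 it equalled, to the base, exactly 1 distance in GENCODE 29 from an acceptor to a donor held by the same transcript. Each deposited start and end was 39637 bases above its GRCh38 boundary, the same offset for all of them. Of all 1390 circRNAs with a single protein-coding host in GENCODE 29, 1276 (91.8%) equalled at least 1 such distance and 1268 (91.2%) exactly 1, and in 46 of 49 hosts with at least 3 circRNAs matched once, all of them shared 1 offset.

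The gene lies on the minus strand and PRKAR1B-201, used here for exon numbers, has 11 exons. The 9 inner exons are the same in 5 of the 12 annotated transcripts. The circRNAs ran over exons 2 to 4 (hsa_circ_0008039), exons 7 to 9 (hsa_circ_0079039), exons 2 to 9 (hsa_circ_0079041), exons 2 to 7 (hsa_circ_0079045) and exons 5 to 7, the last without a circBase identifier. No circRNA held exon 1, 10 or 11. The 3 exons of the leading circRNA are shown because they carry 440 coding bases in addition to 22 untranslated bases at the start of exon 2. They are given in the gene's sense, from GENCODE 29 on the minus strand of GRCh38, at chr7:711329-711505, chr7:680556-680726 and chr7:677229-677320. Capitals mark the start codon in exon 2, the 7 codons of the core of the inhibitor site in exon 3 and the 15 bases next to the back-splice donor in exon 4.
exon 2, coding part: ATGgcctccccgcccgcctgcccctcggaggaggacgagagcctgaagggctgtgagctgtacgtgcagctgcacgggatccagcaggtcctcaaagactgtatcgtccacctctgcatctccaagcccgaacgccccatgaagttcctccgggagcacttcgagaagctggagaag
exon 3: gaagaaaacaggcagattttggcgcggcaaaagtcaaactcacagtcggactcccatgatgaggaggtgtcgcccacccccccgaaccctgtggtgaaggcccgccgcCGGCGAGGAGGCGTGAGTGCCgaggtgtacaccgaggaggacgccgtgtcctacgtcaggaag
exon 4: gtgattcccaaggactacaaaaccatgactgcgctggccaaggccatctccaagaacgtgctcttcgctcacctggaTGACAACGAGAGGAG
Exons 2 to 4 therefore hold the start codon and the inhibitor site, and the start codon is also in the circRNAs of exons 2 to 9 and 2 to 7.

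The back-splice junction is the stretch that tells these circles from each other and from the linear messenger RNA. Each is built below from the last 15 bases of the donor exon, in lower case, and the first 15 bases of the acceptor exon, in capitals, in the gene's sense, from the GENCODE 29 exons that the match gave.
exons 2 to 4: tgacaacgagaggagGAAGGAAGCAGCCAC
exons 7 to 9: tacatcatcacggagGTGTACGTGAACGGA
exons 2 to 9: tacatcatcacggagGAAGGAAGCAGCCAC
exons 2 to 7: cggcgcatccttatgGAAGGAAGCAGCCAC
exons 5 to 7: cggcgcatccttatgTGACATATTCGATGC
The circRNAs of exons 2 to 4, 2 to 9 and 2 to 7 share the acceptor side and differ on the donor side. None of the 5 junctions occurred in any of the 206694 GENCODE 29 transcripts. Linear transcripts do not hold exons in this backward order, so the absence was largely set by how the junctions were built. The reads themselves were not used here, so these are junctions rebuilt from the annotation.

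The exon 2 to 4 circRNA was by far the most abundant of the gene. It had 98 back-splice reads in HD-SB and was not listed in Control. In HD-SB this was 8470 CPM (reads per 1000000 back-splice reads of the library's listed circRNAs) or 0.847% of those reads. The 95% Clopper-Pearson interval of this share was 0.688 to 1.03, which covers counting error only, as do all intervals here. The deposited position of this circRNA was 716866 to 751164, a span of 34299 bp with introns. Its exons come to 462 nt when spliced.

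The circRNAs of exons 7 to 9, 2 to 9 and 2 to 7 each had 6 reads in HD-SB, 519 CPM or 0.0519% (0.0190 to 0.113), and were not listed in Control. Their spans were 17049, 132272 and 115382 bp, and their exons came to 342, 913 and 730 nt. The exon 5 to 7 circRNA had 2 reads in HD-SB, 173 CPM or 0.0173% (0.00209 to 0.0624), and was not listed in Control. No circRNA was listed with fewer than 2 reads, and 214 of the 1475 HD-SB circRNAs had just 2. It spanned 11307 bp and 268 nt of exon. The leading circRNA thus had 16.3 times the reads of each of the 3 that followed, and the interval of those 3 overlapped in part with that of exons 5 to 7. A junction read counts 1 site whatever the length of the circle, and these levels were not corrected for length. Whether library preparation or calling favoured some lengths was not tested. Which inner exons each molecule keeps was not measured, so spliced lengths assume all annotated exons between the ends.

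**Figure D1:**
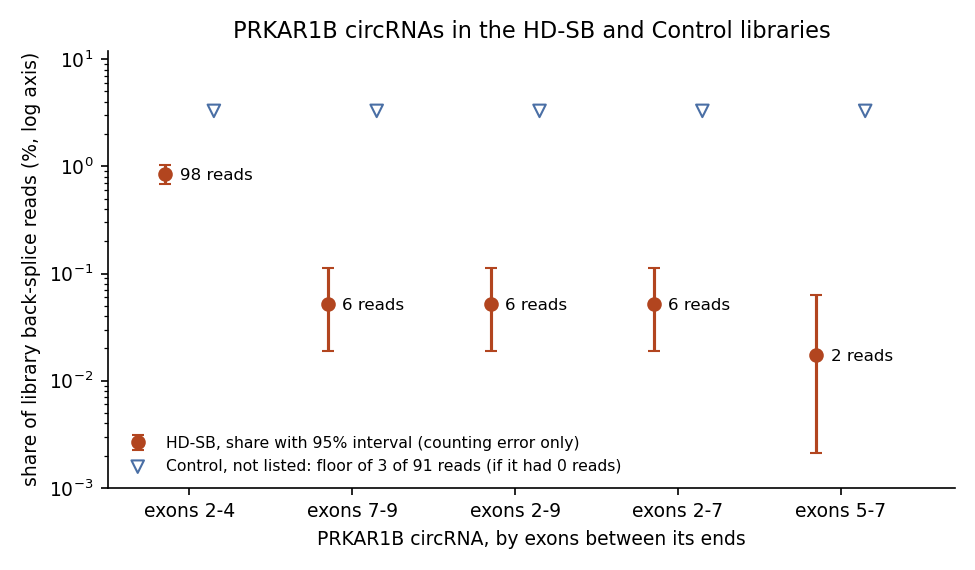
Share of the library's back-splice reads (%, log axis) for each PRKAR1B circRNA, with filled points for the HD-SB library with 95% Clopper-Pearson intervals and open triangles for the Control library, where none was listed, at the floor of 3 of 91 reads that holds if a circRNA had 0 reads. The exon 2 to 4 circRNA stands at 0.847% and the other 4 at 0.0519% or less, all below the Control floor of 3.30%. The floor is not a Clopper-Pearson limit, which would be 3.97% at 0 of 91 reads. An unlisted Control read would equal 1.10% of the 91 reads of listed circRNAs, but would lie outside them.

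The ends of the circRNAs came from few exons. The 5 circRNAs had 3 distinct deposited starts and 3 distinct ends, that is 3 donors and 3 acceptors. The acceptor of exon 2 took part in 3 circRNAs and 110 of the 118 PRKAR1B reads in HD-SB, 93.2% (87.1 to 97.0). The acceptors of exon 7 and exon 5 took 6 and 2 reads. The donor of exon 4 was used in 1 circRNA with 98 reads, 83.1% (75.04 to 89.3), the donor of exon 9 in 2 circRNAs with 12 reads, 10.2% (5.37 to 17.1), and the donor of exon 7 in 2 circRNAs with 8 reads, 6.78% (2.97 to 12.9). Exon 7 served as acceptor in 1 circRNA and as donor in the 2 others that end there, and it lay in 4 of the 5, against 3 for each of exons 2 to 6 and 2 for each of exons 8 and 9. By reads the upstream exons came first, with 110 reads over each of exons 2 to 4, 14 over exons 5 and 6, 20 over exon 7 and 12 over exons 8 and 9.

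Of the 10 pairs of these circRNAs, 6 were nested 1 in the other, 2 overlapped at exon 7 alone and 2 shared no exon. The circRNAs of exons 2 to 4 and 5 to 7 adjoin at the junction of exons 4 and 5, and together they cover the exons of the 2 to 7 circRNA, 462 and 268 nt against 730 nt. Between exons 4 and 5 lies the longest intron of PRKAR1B-201, 69776 nt. The leading circRNA stops just before it, the exon 5 to 7 circRNA starts just after it, and those of exons 2 to 9 and 2 to 7 cross it. Among the 1268 circRNAs placed once by length, 34 (2.68%) had a downstream intron at least that long, and the median was 6436 nt. The intron before exon 2 depends on the first exon and ranges from 886 to 16062 nt over 6 annotated lengths, against a median upstream intron of 7169 nt for the 1268.

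**Figure D2:**
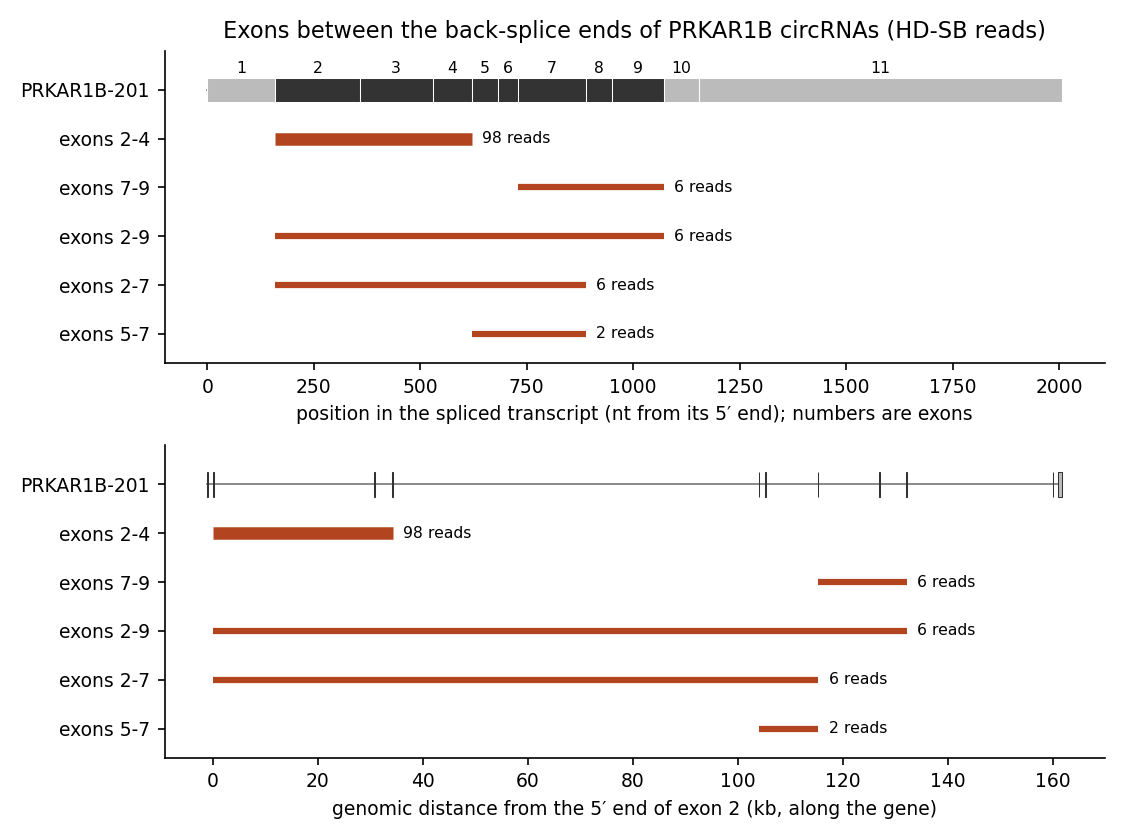
Exons of PRKAR1B-201 (top row of each panel) and the stretch between the ends of each circRNA with its HD-SB reads, along the spliced transcript in nt (upper panel) and along the gene in kb from the 5′ end of exon 2 (lower panel), both to scale. Dark exons in the upper panel, 2 to 9, are in at least 1 circRNA, and the widest bar marks the circRNA with 98 reads.

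Some of these features are common in the table. A circle whose acceptor is the second exon of its transcript made up 356 of the 1268 (28.1%), and 3 of the 5 PRKAR1B circRNAs. A circle of 3 exons made up 399 (31.5%), and again 3 of the 5. The annotated start codon lay in 216 of the 1220 whose transcript has one annotated (17.7%), and in 3 of the 5, which share the exon 2 acceptor and are therefore not independent. The median spliced length was 375 nt in the table (quartiles 314 and 474), so that the leading circRNA, at 462 nt, lay within the quartiles and those of 730 and 913 nt lay above them. The GC content of the 5 circles was 56.7% to 61.3%, against a median of 49.96% in the table. Most pairs of the 5 share exons, so these values are not independent, and the spread of GC in the table was not summarised. A circBase identifier was given for 4 of the 5, against 75.6% of all 1485. Exons 5 and 6 lie inside PRKAR1B-AS1, a noncoding gene annotated on top of PRKAR1B (7:602845 to 608502 in RefSeq, GRCh38.p14). The exon 7 end of the exon 5 to 7 circRNA (7:596146 to 596304 for that exon) lies outside PRKAR1B-AS1. By length, both ends of that circRNA fall on PRKAR1B exon boundaries. No strand setting is given in the sources used here, and the strand of the reads themselves was not checked.

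Whether PRKAR1B circRNAs differ between HD-SB and Control could not be read from these libraries. The gene had 118 of 11570 back-splice reads in HD-SB, 1.02% (0.845 to 1.22), and no listed read among the 91 of Control. Had it 0 reads there, a floor of 3 reads would allow a share of up to 3.30%. This floor is not a Clopper-Pearson limit, which would be 3.97% at 0 of 91 reads. At its HD-SB share the gene would have had 0.928 of the 91 Control reads, and the leading circRNA 0.771. Both are below 2 reads, the fewest of any listed circRNA. The 91 reads are those of listed circRNAs only, and an unlisted circRNA can still have had 1 read outside them. If 2 reads were the only listing rule, up to 5 Control reads of the gene, equal in number to 5.49% of the 91, could have gone unlisted. The listing rule itself is not given. The full Control depth is not known, and the expected reads above take 91 as that depth. A higher share in HD-SB was therefore not detectable from these listed reads. All 5 were listed in HD-SB and not in Control, as were 97.8% of the 1485 circRNAs. On the log2(CPM + 172.861) scale, 4 of the 5 passed the filter on mean level (216 CPM, the median of all), and all 4 that passed had an HD-SB value at least 2-fold above Control, against 96.0% of the 797 that passed. None of the 4 was at least 2-fold below it, against 4.02% of the 797. Their median log2 ratio was 2, against 2.17 for all that passed. With 0.5 read added in each library instead, 0 of the 4 were at least 2-fold higher and 3 were at least 2-fold lower, against 4 higher and 772 lower of the 797. A circRNA not listed in Control passes the filter through its HD-SB value alone, and is then at least 2-fold higher with 172.861 CPM added. For such a circRNA the ratio and its direction are set by the pseudocount, so nothing is read from these counts. By the interval of the share ratio, which has to lie above 1 with both 0 and 1 Control read, none of the 5 was higher, and 0.0% of all circRNAs were. Even with 0 Control reads the lower limit for the leading circRNA was 0.205. With 91 Control reads none of the 5 could thus pass this rule, and nothing is read from it.

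Within HD-SB the leading circRNA ranked 8 of 1475, and 8 circRNAs (0.542%) had at least its 98 reads, itself included. The next 3 were among 123 circRNAs with 6 reads, and the median of the library was 5 (quartiles 3 and 8). The median over the 5 PRKAR1B circRNAs was 6 reads. The gene is thus 1 circRNA in the top of the library beside 4 near its middle or its lower limit.

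**Figure D3:**
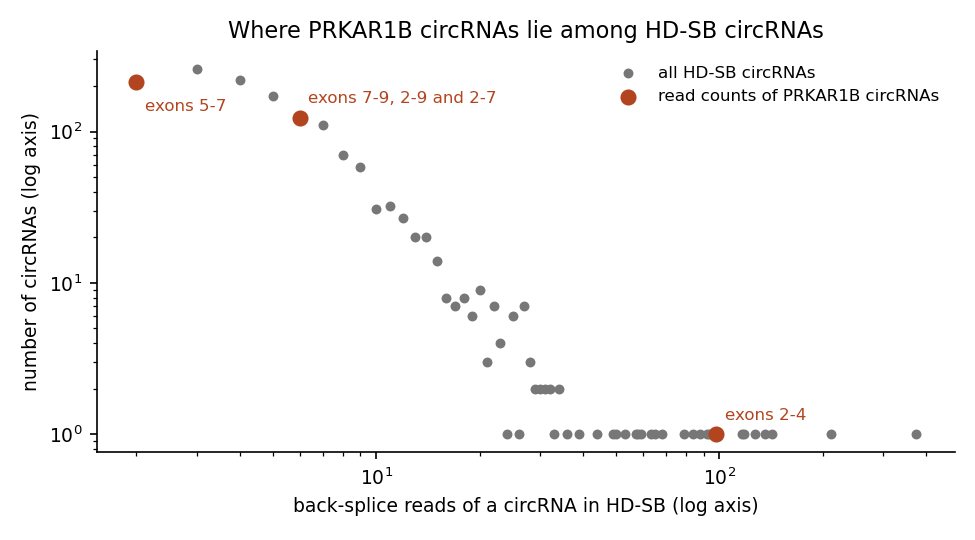
Number of HD-SB circRNAs (log axis) at each number of back-splice reads (log axis), with the read counts of the PRKAR1B circRNAs in colour. The 98 reads of the exon 2 to 4 circRNA lie in the sparse right tail, and the 6 and 2 reads of the other 4 lie among the common low counts.

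Most protein-coding hosts gave a single circRNA, 883 of 1094 (80.7%). With 5 circRNAs PRKAR1B tied at rank 8 by number, and with 118 reads it was at rank 8 by reads. The 9 other hosts with at least 5 circRNAs in HD-SB were MAD1L1, a spindle checkpoint gene (7 circRNAs, 51 reads), the RNA-binding protein gene RBM33 (6 and 168), the Wnt co-receptor LRP5 (6 and 123), ATXN10 (6 and 86), the focal adhesion gene TNS3 (6 and 48), ARHGAP32, which encodes a GTPase-activating protein (6 and 30), the histone methyltransferase EHMT1 (6 and 27), the tubulin cofactor TBCD (5 and 58) and the drug efflux transporter ABCC1 (5 and 16). The leading circRNA held 83.1% of reads in PRKAR1B, and 23.5% to 81.0% in these 9, with a median of 37.5%. It was the highest share of the 10, but its interval overlapped those of RBM33 (81.0%, 74.2 to 86.6), ATXN10 (75.6%, 65.1 to 84.2) and LRP5 (68.3%, 59.3 to 76.4). It did not overlap that of TNS3 (37.5%, 24.0 to 52.6), ARHGAP32 (43.3%, 25.5 to 62.6), MAD1L1 (23.5%, 12.8 to 37.5), EHMT1 (25.9%, 11.1 to 46.3), TBCD (29.3%, 18.1 to 42.7) or ABCC1 (25%, 7.27 to 52.4). The leading circRNA was picked as the highest of each host, and PRKAR1B was chosen with its reads known. Overlap of these intervals, or its lack, is therefore a description and no test. Of the 57 hosts with at least 3 circRNAs, 5 had a share at least as high as that of PRKAR1B, itself included, and the median was 50%.

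**Figure D4:**
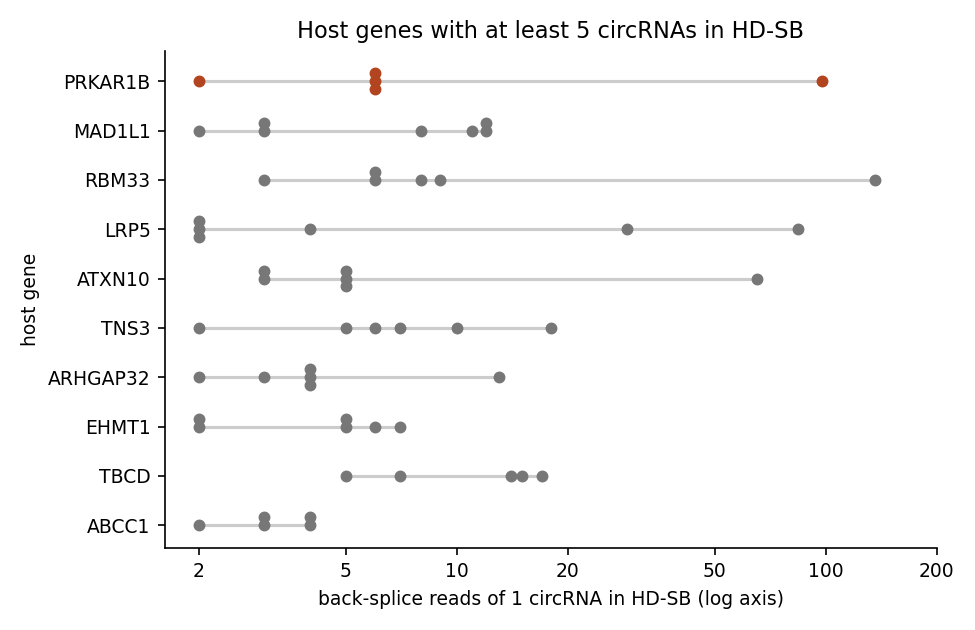
Back-splice reads of each circRNA in HD-SB (log axis) for the 10 host genes with at least 5 circRNAs there, 1 point per circRNA, with PRKAR1B in colour at the top. PRKAR1B, RBM33, ATXN10 and LRP5 each show 1 circRNA far to the right, at 98, 136, 65 and 84 reads.

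The 5 hosts nearest to PRKAR1B in summed HD-SB reads, among those with at least 3 circRNAs, were LRP5 with 123 reads, the microtubule minus-end gene CAMSAP1 with 128, the lipase gene ABHD2 with 91, ATXN10 with 86 and the chaperone gene FKBP8 with 86. This is likeness of level in 1 library. Of these, CAMSAP1 was listed in Control, with 2 reads on 1 circRNA. The leading circRNA held 92.2% of reads in CAMSAP1 (86.1 to 96.2), 86.8% in ABHD2 (78.1 to 93.0) and 58.1% in FKBP8 (47.0 to 68.7). The interval of FKBP8 alone does not overlap that of PRKAR1B, which again is a description and no test.

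Other genes of cAMP signalling were named as hosts of 4 circRNAs. In a list of 63 genes of the pathway, 5 were hosts, with 9 circRNAs and 144 HD-SB reads, 1.24% of the library (1.05 to 1.46), and no listed Control read. PRKAR1B held 81.9% of those reads (74.7 to 87.9). Without it, 4 of 62 genes (6.45%) were hosts, against 1094 of 19931 protein-coding genes in GENCODE 29 (5.49%). Of the regulatory subunits, PRKAR1A had 1 circRNA (hsa_circ_0045508, 4 reads in HD-SB, not listed in Control), whose length matched exons 4 to 7 of PRKAR1A-204, and the type II genes PRKAR2A and PRKAR2B had none. None was listed for the 4 catalytic subunit genes, the 3 inhibitor genes, the 2 stimulatory G protein genes or the 16 phosphodiesterases, which break down cyclic nucleotides. Of the 10 adenylate cyclases, which make cAMP, ADCY7 had 1 (hsa_circ_0000699, 10 reads in HD-SB). Of the 7 genes of cAMP-dependent transcription, the coactivator CREBBP had 1 (hsa_circ_0007637, 9 reads in HD-SB). Both were not listed in Control, and the length of each matched exon 2 alone, 439 and 713 nt.

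Of the 15 genes of anchoring proteins, which tether protein kinase A to sites in the cell, AKAP12 was named for 1 circRNA with 3 reads in HD-SB and none listed in Control. That circRNA also carries 3 small-RNA names and matched no exon distance, so its host is uncertain. The other 4 circRNAs of the list, outside PRKAR1B, thus had 3 to 10 reads each and 26 in all, with a median of 6.5 against 5 in the library. The leading PRKAR1B circRNA alone had 98.

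Among genes near PRKAR1B on the short arm of chromosome 7, 3 were hosts, with 12 circRNAs and 82 HD-SB reads and none listed in Control. Within 1000000 bp of the PRKAR1B circRNAs these were SUN1, a nuclear envelope gene, with 2 circRNAs of 4 and 3 reads, and C7orf50 with 3 circRNAs of 6 to 11 reads. Farther out, MAD1L1 had 7 circRNAs of 2 to 12 reads. None of the 12 approached the 98 reads of the exon 2 to 4 circRNA. The label of the cells was checked on marker genes as hosts, where 2 of 14 intestinal epithelial genes (EPCAM and VIL1) gave 4 circRNAs and 38 HD-SB reads, and the fibroblast, leukocyte and neuron lists gave none. Those last 3 lists held 6, 5 and 4 genes. Over all protein-coding genes 5.49% were hosts, so a list that short can easily give none. A gene without a listed circRNA can also still be expressed, so this check is weak.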

How the data were processed

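The data came from SW620 RNA depleted of ribosomal RNA and treated with RNase R, in 1 HD-SB and 1 Control library. Per the submitters' processing notes, FastQC, HISAT2 2.1.0 and GRCh38 were involved, with no role stated. How circRNAs were called and filtered, and whether duplicate reads were removed, is not given in the sources used here. The values deposited by the authors are headed TPM but were treated as CPM. Each column summed to 1000000, and every listed value (100%) lay within 0.01 of a whole multiple of a single step, 86.4 CPM in HD-SB and 10989 CPM in Control, whatever the span. Division by the step gave 11570 reads on 1475 circRNAs in HD-SB and 91 reads on 32 in Control. These totals hold listed circRNAs only. The value 0.001 was taken as not listed. This was read as 0 or 1 read because the fewest listed reads were 2, though the listing rule is not given. Amplified reads are not independent molecules.

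The members and lists were chosen with earlier results of these data known. Named were every PRKAR1B circRNA, hosts with at least as many circRNAs, the 5 nearest hosts by reads, the cAMP list and the neighbour list. Placement by length compared deposited end minus start with acceptor-to-donor distances in GENCODE 29, transcript ends left out. Where several transcripts held both boundaries, the one with most exons between them was used. Host names were matched by symbol or older symbol. Length matching and intervals were tested on simulated data. Python 3.11.15, pandas 2.3.3 and SciPy 1.17.1 were used. With 1 library per group no test was made. Ratios were taken as log2 of HD-SB over Control after adding 172.861 CPM, the 5th percentile of all listed values, to each. Alternatives covered the pseudocount, filter, scaling, fold, listing minimum and thinning.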

Additional observations from a re-analysis of the deposited data

How the results depend on the processing

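The 5 listed PRKAR1B circRNAs became an expected 2.46 when HD-SB was thinned to 2892 reads and 0.183 when it was thinned to the 91 reads of Control, through fewer reads. The gene's share of 1.02% became 0.173% without its most abundant circRNA and 1.22%, just past the upper end of its interval before rounding, with a minimum of 5 reads. Of the 4 PRKAR1B circRNAs past 2-fold in favour of HD-SB, 1 was left when the pseudocount was made 4 times larger and 1 under a stricter filter (top 25% of means). There were 0 when 0.5 read was added to both libraries, and 0 when the share ratio's interval was the rule. None of the 5 could pass that last rule with 91 Control reads. A larger pseudocount shrinks every ratio and a stricter filter admits fewer circRNAs by construction. With 0.5 read, worth more CPM in Control than in HD-SB, 3 of the 4 were at least 2-fold lower, as were 772 of the 797 circRNAs tested, so the direction of these ratios is set by the pseudocount. The rank of 8 by number of circRNAs became 4 with a minimum of 5 reads. The other 18 of 27 values under alternatives stayed within 1.5 times of a count or within the interval of a share, among them the 83.1% of reads on the leading circRNA. Several of the 18 could not move. Asking for PRKAR1B as the only host name kept the same 5 circRNAs. Dropping the filter or asking for 1.5-fold could not lose a circRNA past 2-fold. The 83.1% became 84.5% with at least 3 reads or with circBase identifiers only, and both settings dropped only the circRNA with 2 reads. The 18 are therefore no measure of stability. No paired analysis was possible because there was 1 library on each side. Depth limits the comparison through the 91 reads of Control.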

Other observations

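The circle of exons 2 to 4 holds the annotated start codon, and its 462 nt are a multiple of 3. Read from that codon round the circle, with the 22 untranslated bases of exon 2 read through, no stop codon was met in frame within 3 rounds. At this length every round reads the same codons. In the circles of exons 2 to 9 and 2 to 7, whose 913 and 730 nt are not multiples of 3, the first stop in frame came after 322 and 261 codons, past the back-splice junction. The exon 7 to 9 circle, at 342 nt, is also a multiple of 3 but lacks the start codon. Of the 1268 circles placed by length, 473 (37.3%) were a multiple of 3. How many of these also hold a start codon and no stop in frame was not counted. Translation was not measured in these data.

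The study's title names hsa-miR-204-5p, so the PRKAR1B circles were searched for a match to its seed. The mature sequence from RefSeq (GRCh38.p14) is given with its seed, bases 2 to 8, in capitals.
hsa-miR-204-5p: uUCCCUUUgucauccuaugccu
The letters searched were AAAGGGA, on the strand of the gene and across the back-splice junction, with no other motif searched. They were in none of the 5 PRKAR1B circles. They were in 58 of the 1268 circles (4.57%), and in 10 of the 221 circles of 412 to 512 nt (4.52%), the lengths around that of the exon 2 to 4 circle. The search covers these letters in annotated exons and says nothing on binding.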
